A study of Mus musculus with 8 samples.

Results

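Semaphorins, ephrins and Slits are guidance cues that tell growing axons and vessel sprouts where to go, and plexins, Eph receptors and Robos are the cell surface receptors that read them. In endothelium they are known for repelling or steering sprouts and for keeping vessel identities apart: ephrin-B2 marks arterial and its receptor EphB4 venous endothelium, semaphorin 3E signals through plexin-D1, and Robo4 is a Robo receptor largely restricted to endothelial cells. Ephrins and their Eph receptors both sit in the membrane and signal in both directions on cell contact, class 3 semaphorins and Slits are secreted, and the other vertebrate semaphorin classes are mostly bound to the membrane.

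The genes described here were taken by symbol alone, as every semaphorin of classes 3 to 7, plexin, ephrin, Eph receptor, Slit and Robo among the 19505 genes measured with a symbol. The choice gave 56 genes, each with 1 probe set: 30 ligands (19 semaphorins, 8 ephrins and 3 Slits) and 26 receptors (9 plexins, 13 Eph receptors and 4 Robos). All of them entered the comparison.

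RNA came from lung endothelial cells (EC) of C57BL/6N mice carrying subcutaneous LLC tumors (Lewis lung carcinoma cells, which arose in a mouse lung). The 4 anti-TIE1-treated mice received a blocking antibody against Tie1, an orphan receptor of endothelium that partners with the angiopoietin receptor Tie2 (gene Tek), and the 4 control mice received IgG. Both were injected into the peritoneum 2 times per week at 40 mg/kg, and lungs were taken on day 14. Dose and day stem from the methods and are not in the labels. The labels give the age of all mice as 8 weeks. No genetic change was named for any of the mice, and all of them carried the tumor, so a tumor-free lung was not part of the comparison. Cells were sorted as CD31+ CD45- LYVE1- PDPN- Ter119- DAPI-, and the RNA of each mouse was hybridized to 1 Clariom S array, which gives 1 brightness per probe set. Each sample is named as a biological replicate, and nothing says whether the mice were housed or processed together.

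The labels hold inconsistencies. The antibody field of anti-TIE1 samples 2, 3 and 4 counts up to other target names while all 4 titles name TIE1, and the dissociation protocol speaks of liver while the tissue field and the study's methods name lung. The markers bore on the tissue: all 10 lung capillary markers (such as Car4 and Ednrb) and all 9 measured pan-endothelial markers lay above the array's background control sets on all 8 arrays, against 0 of 7 liver sinusoidal endothelial and 0 of 6 hepatocyte markers. Background here means 23 control probe sets per array, whose log2 intensities ran from 5.51 to 7.91 over the 8 arrays, and a gene counts as above background where it was brighter than the brightest of them on each of the 8 arrays. Tie1 itself averaged 11.00 ± 0.11 in anti-TIE1-treated and 11.06 ± 0.20 in IgG-treated mice (log2 intensity, SD, n = 4 each), and Tek averaged 11.34 ± 0.04 in anti-TIE1-treated and 11.32 ± 0.07 in IgG-treated mice. The antibody binds the protein, so these RNA levels check no label.

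Among the 56 guidance genes, 30 were above background on all 8 arrays, 22 on none, and 4 on some. The semaphorins above background were Sema3b, Sema3c, Sema3f and Sema3g of the secreted class, Sema4b, Sema4c and Sema4f, and Sema5a, Sema6a, Sema6b, Sema6d and Sema7a. Among plexins they were Plxna1, Plxna2, Plxna4, Plxnb2, Plxnc1 and Plxnd1. The ephrin and Eph genes were Efna1, Efna2, Efna4, Efnb1 and Efnb2 with Epha1, Epha2, Epha4, Epha10 and Ephb4, and the Slit and Robo genes were Slit3 and Robo4. Efna3 passed on 7 arrays, Sema3d on 4, and Efnb3 and Ephb1 on 1 each. The 22 others included Slit1, Slit2, Robo1, Robo2, Robo3, Sema3a, Sema3e and 7 of the 13 Eph receptors. A gene inside the background range may still be expressed at a level that the array did not separate from background.

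**Figure D1:**
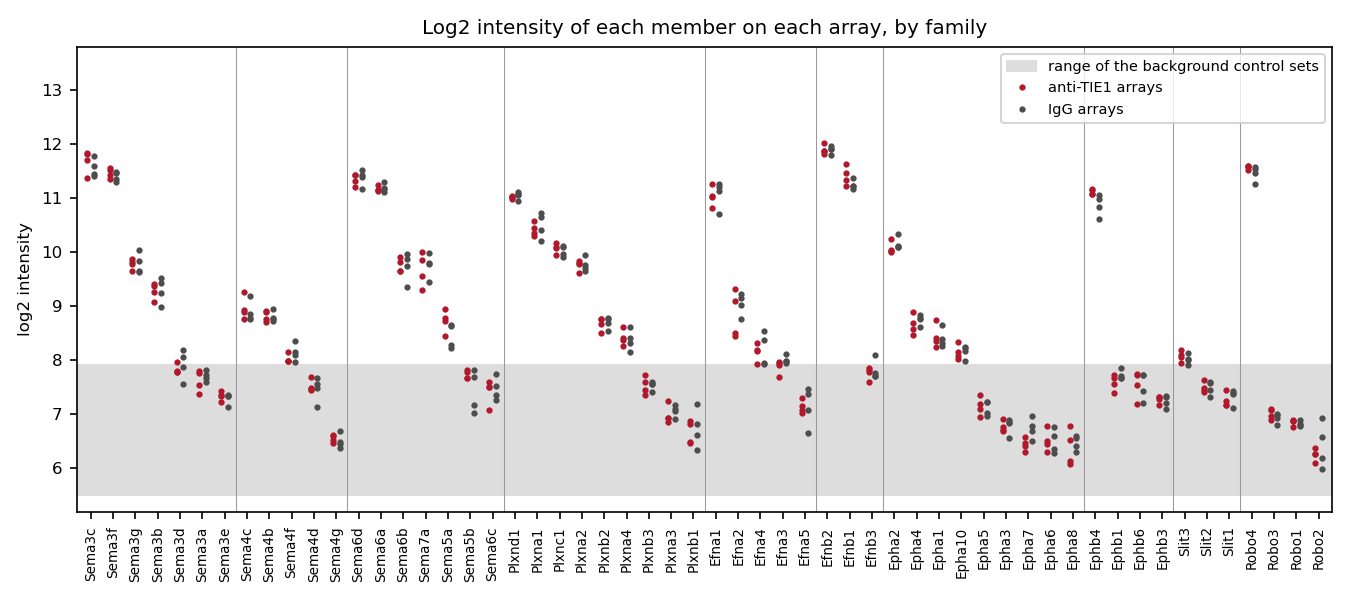
Log2 intensity (vertical axis) of each of the 56 guidance genes on the 4 anti-TIE1 arrays (red, left) and the 4 IgG arrays (grey, right), with genes grouped by family between the vertical lines. The grey band spans the background control sets over all arrays, from 5.51 to 7.91, and 30 genes lie above the brightest of them on every array.

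The comparison between the treatments asked which guidance genes differed in lung EC between anti-TIE1-treated and IgG-treated mice. None of the 56 passed an adjusted p under 0.05 (limma, adjusted over all 22202 probe sets tested by the method of Benjamini and Hochberg), and neither did any other probe set (0%), the smallest adjusted p being 0.344. At an unadjusted p under 0.05 there was 1 guidance gene that was higher, Ephb4, and 1 that was lower, Epha7. Over all probe sets 2.17% were higher and 3.15% lower by the same rule, so 1 of 56 in each direction is no more than the background. Ephb4 was also the 1 guidance gene whose values did not overlap between the treatments, where 1.38% of all probe sets did not overlap with higher and 1.78% with lower values, and no guidance gene was lower without overlap. By means, 24 genes were higher and 32 lower, with log2 differences (anti-TIE1 minus IgG) from -0.30 to 0.31. Over all probe sets, 10713 were higher and 11489 lower by means.

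Of the 30 ligands, 0 had an unadjusted p under 0.05, and both genes that had one, Ephb4 and Epha7, are receptors. A difference between ligands and receptors was not tested. The median log2 difference was -0.0076 over the 30 ligands and -0.0073 over the 26 receptors, against -0.0044 over all probe sets. Over the 18 ligands above background it was -0.0040, and over the 12 receptors above background -0.0073. The median pooled SD within a treatment was 0.14 for the guidance genes, as for all probe sets.

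By family, the median differences farthest from 0 were 0.060 for the 4 Robos, 0.055 for the 5 class 4 semaphorins and -0.046 for the 5 ephrin-As, and the other 7 families lay between -0.024 and 0.029. Robo1 and Robo3, which set the Robo median, and Sema4g, which set the class 4 median, were above background on 0 arrays. Efna4, which set the ephrin-A median, was above background on all 8. All 5 ephrin-As, and 7 of the 8 ephrins, had lower means in anti-TIE1-treated mice, and so had 7 of the 9 plexins. At an unadjusted p under 0.05 there were 0 ephrins and 0 plexins, so no family is called lower from these means.

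**Figure D2:**
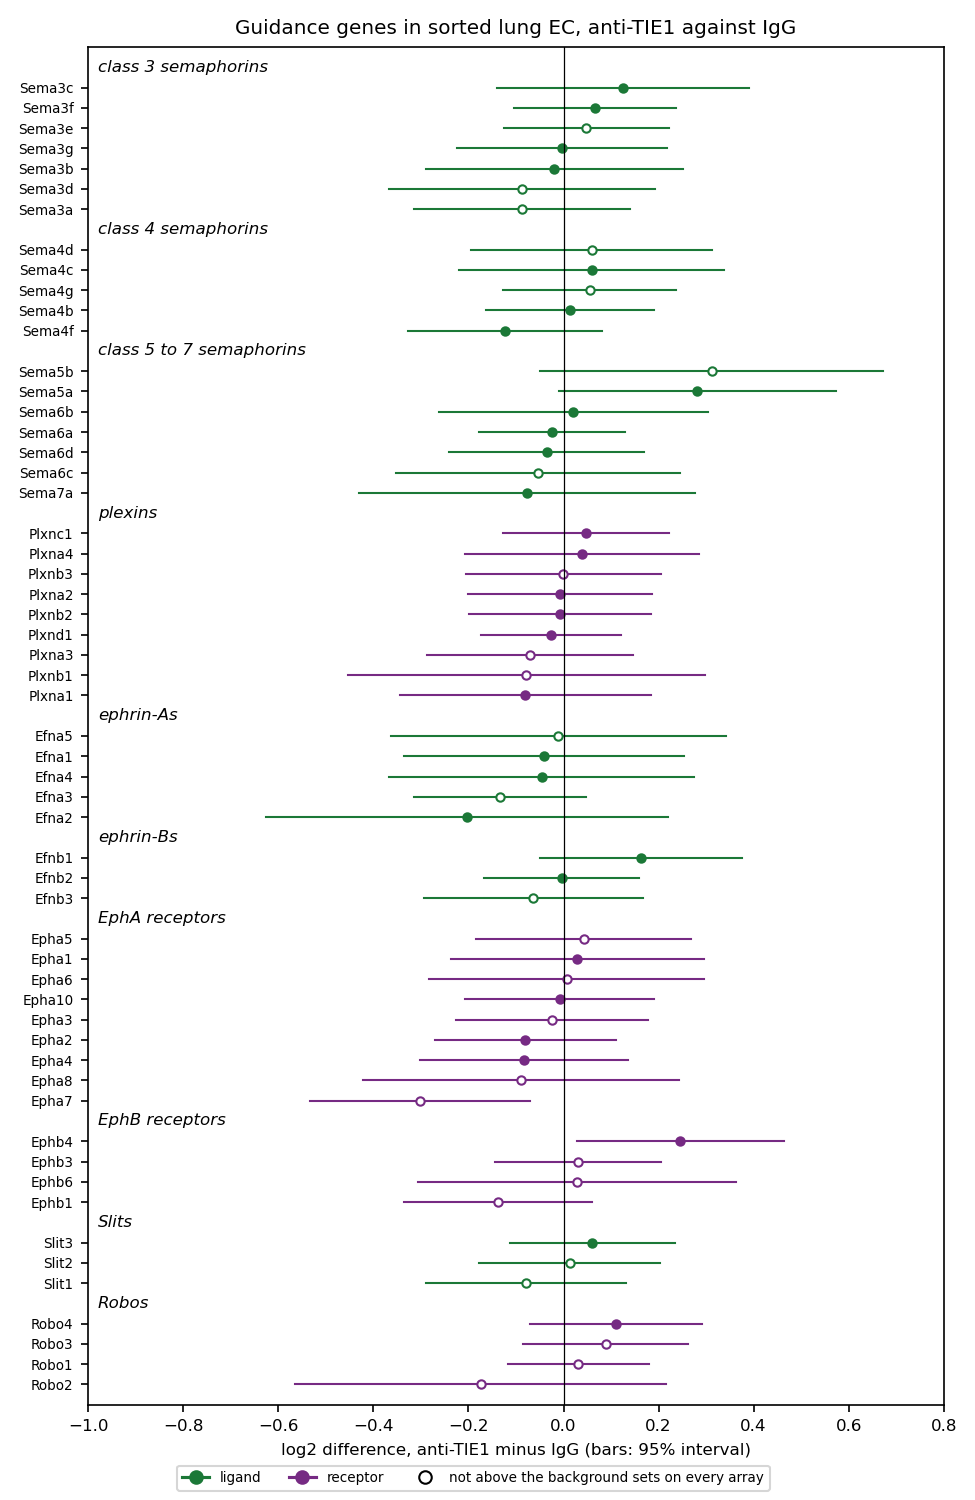
Log2 difference, anti-TIE1 minus IgG (horizontal axis), of each of the 56 guidance genes by family, with bars for limma's 95% interval. Ligands are green, receptors purple, and open points were not above background on every array. The intervals of Ephb4 (above 0) and Epha7 (below 0) are the 2 that exclude 0.

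The promoters of 4 genes are shown for the genes the results turn on: Ephb4, which had the separated values, its ligand Efnb2, the endothelial receptor Robo4, and Epha7, which had the lowest fitted difference. Each run holds the 250 bases before the RefSeq start on the gene's strand, 5′ to 3′, in build GRCm38.p6: chr5:137349859-137350108 (plus strand) for Ephb4, chr8:8661243-8661492 (minus strand) for Efnb2, chr9:37401722-37401971 (plus strand) for Robo4 and chr4:28812881-28813130 (plus strand) for Epha7, which has 2 listed starts. Capitals mark GC boxes (GGGCGG, or CCGCCC on the other strand) and CCAAT boxes (CCAAT, or ATTGG on the other strand).
Ephb4: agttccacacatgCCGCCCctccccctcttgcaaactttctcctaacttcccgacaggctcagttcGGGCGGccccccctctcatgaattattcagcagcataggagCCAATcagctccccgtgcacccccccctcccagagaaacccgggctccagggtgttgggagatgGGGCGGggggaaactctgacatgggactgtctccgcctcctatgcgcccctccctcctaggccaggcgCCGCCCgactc
Efnb2: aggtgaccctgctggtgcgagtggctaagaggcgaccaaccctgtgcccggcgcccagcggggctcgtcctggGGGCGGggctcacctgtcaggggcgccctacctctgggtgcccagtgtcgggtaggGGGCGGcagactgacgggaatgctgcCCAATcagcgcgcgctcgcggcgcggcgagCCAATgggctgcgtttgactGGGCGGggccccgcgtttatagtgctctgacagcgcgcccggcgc
Robo4: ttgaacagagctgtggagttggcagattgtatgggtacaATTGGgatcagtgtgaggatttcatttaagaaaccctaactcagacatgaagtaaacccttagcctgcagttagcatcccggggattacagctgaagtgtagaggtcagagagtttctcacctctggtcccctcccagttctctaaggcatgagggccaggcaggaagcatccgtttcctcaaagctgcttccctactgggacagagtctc
Epha7: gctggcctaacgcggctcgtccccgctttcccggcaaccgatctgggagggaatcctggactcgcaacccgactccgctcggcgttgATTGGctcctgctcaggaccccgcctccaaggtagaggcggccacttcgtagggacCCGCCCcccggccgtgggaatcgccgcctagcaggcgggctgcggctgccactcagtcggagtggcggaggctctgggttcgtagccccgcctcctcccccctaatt
The Ephb4 window held 4 GC boxes and 1 CCAAT box, Efnb2 held 3 and 2, and Epha7 held 1 and 1, at a GC content of 64%, 72% and 69.2%. The Robo4 window held 0 GC boxes and 1 CCAAT box at a GC content of 49.6%, and it was the one among the 4 with the letters AGGAAG, an ETS-type core, on either strand.

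Of the 56 guidance genes, 49 had entries in the promoter table, with 62 starts. A GC box lay in 71% of these 62 windows, against 32.7% of the 32851 windows of all genes, and the median GC content was 64.2% against 52.4%. A CCAAT box lay in 29% against 33.8%, AGGAAG in 35.5% against 29.5%, and GTAAACA, a FOXO motif, in 0% against 3.17%, each on both strands and with overlaps between motifs not removed. A match of letters is a description of the sequence, not a binding site.

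Ephb4, the receptor for ephrin-B2 on venous endothelium, measured 11.08, 11.16, 11.17 and 11.09 in the 4 anti-TIE1-treated mice, against 10.99, 11.06, 10.85 and 10.61 in the 4 IgG-treated mice (log2 intensity). Every anti-TIE1 value lay above every IgG value, with anti-TIE1 1 and IgG 2 the nearest, and the IgG values were spread more widely, with IgG 4 the lowest. The log2 difference was 0.25 (SE 0.10, 95% interval 0.03 to 0.46), a fold of 1.19, with an unadjusted p of 0.030 and an adjusted p of 0.93 in limma. A two-sided exact permutation test over the 70 arrangements of the arrays gave an unadjusted p = 0.029, the smallest it can give with 4 against 4. Values without overlap always give this p, so it is no support beyond the lack of overlap. Without IgG 4 the difference was 0.16 with an unadjusted limma p of 0.071, and without anti-TIE1 2, anti-TIE1 3 or IgG 3 the p was 0.063, 0.067 and 0.061. After median centring of the arrays, the values of Ephb4 overlapped between the treatments, at a difference of 0.25.

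Markers of veins mostly had lower means. Of 7 venous markers, all above background, 6 had lower means in anti-TIE1-treated mice, with a median difference of -0.24, and Nr2f2, a transcription factor of venous identity, averaged 9.10 ± 0.05 in anti-TIE1-treated and 9.42 ± 0.14 in IgG-treated mice, with an unadjusted p of 0.0035 and an adjusted p of 0.81 in limma. It was the 1 venous marker with an unadjusted p under 0.05, where 3.15% of all probe sets were lower at that threshold. The summed intensity of the 7 ran from 4044 to 4958 on anti-TIE1 arrays and from 3977 to 5688 on IgG arrays. IgG 4, the lowest in Ephb4, was also the lowest in these markers, which averaged 9.10, 9.25, 9.32 and 9.05 on the anti-TIE1 arrays, against 9.45, 9.50, 9.46 and 9.03 on the IgG arrays (mean log2 intensity). This was not particular to veins. IgG 4 was also the lowest of the 8 arrays in the arterial markers (9.45, the others 9.52 to 9.70). The same held for the pan-endothelial markers (11.35, the others 11.40 to 11.44). In the lung capillary markers IgG 4 (11.24) was not the lowest, which was anti-TIE1 1 (11.12). The part of these markers in the Ephb4 value was not tested. In RNA of a whole sorted population, fewer cells of a type and less RNA per cell cannot be told apart.

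Efnb2, the arterial ligand of EphB4, measured 11.81, 11.87, 11.88 and 12.02 in anti-TIE1-treated mice, against 11.91, 11.80, 11.91 and 11.98 in IgG-treated mice. The values of the treatments lay within each other's range or close to it, and the difference was -0.0039 with a 95% interval from -0.17 to 0.16. Of 8 arterial markers, 6 had lower means and 0 had an unadjusted p under 0.05, with a median difference of -0.070. Within each array, the log2 ratio of Ephb4 to Efnb2 was -0.73, -0.71, -0.71 and -0.93 on anti-TIE1 arrays, against -0.93, -0.74, -1.06 and -1.36 on IgG arrays. The ratio of brightness between probe sets has no meaning of its own, but its difference between the treatments was 0.25, with overlap between anti-TIE1 4 and the IgG arrays and p = 0.086 in a two-sided exact permutation test. The ratio was chosen after seeing the data. With Efnb2 nearly equal, its difference repeats that of Ephb4 and is not a separate result.

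Efnb1, the ephrin-B ligand encoded on the X chromosome, measured 11.23, 11.47, 11.33 and 11.63 in anti-TIE1-treated mice, against 11.16, 11.24, 11.22 and 11.38 in IgG-treated mice. The highest values came from anti-TIE1 4 and anti-TIE1 2, while anti-TIE1 1 and anti-TIE1 3 lay among the IgG mice. The difference was 0.16 (SE 0.10, interval -0.05 to 0.38), and without anti-TIE1 1 it was 0.22 with an unadjusted limma p of 0.039 and an adjusted p of 0.86. Without anti-TIE1 4 it was 0.092 with an unadjusted limma p of 0.328.

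**Figure D3:**
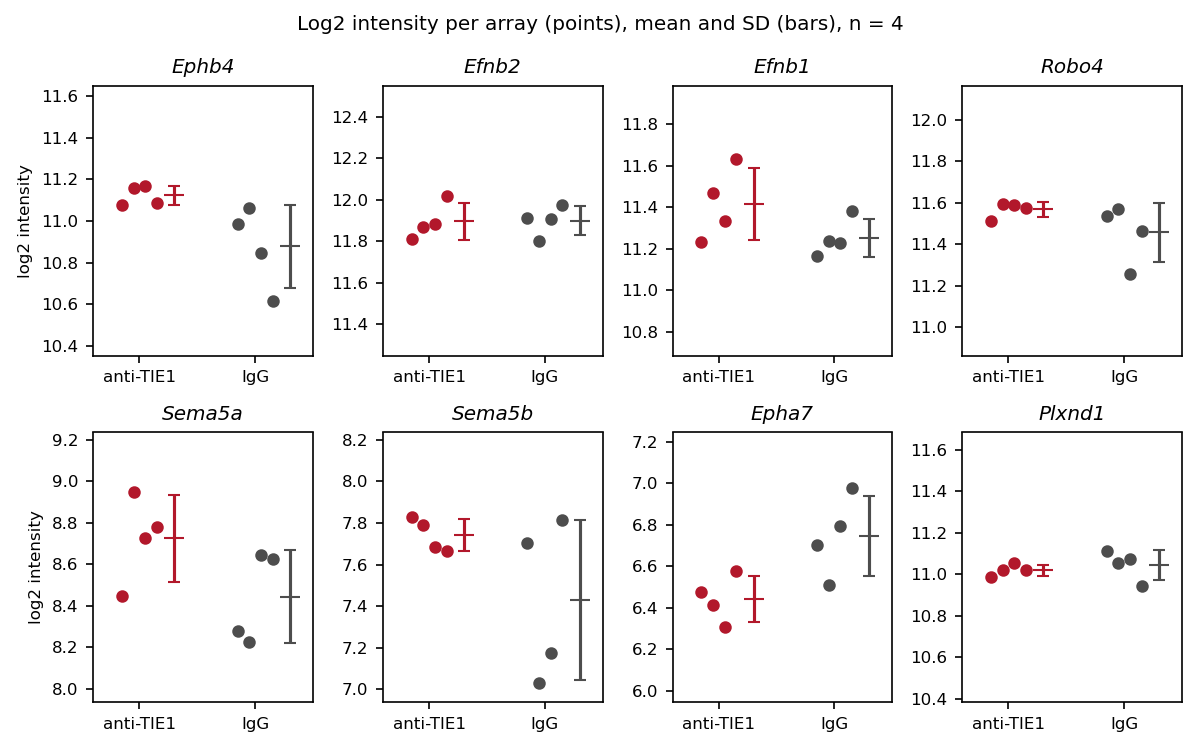
Log2 intensity (vertical axis, each panel spanning the same width) of 8 guidance genes in the anti-TIE1-treated (red, left) and IgG-treated (grey, right) mice. Points are arrays in replicate order and bars show the mean and SD, n = 4. Ephb4 is the panel in which the treatments do not overlap, and Efnb2 and Plxnd1 show nearly equal means.

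Among ephrin-As, which are tethered to the membrane by a lipid anchor, Efna1 measured 11.26, 11.05, 11.03 and 10.83 in anti-TIE1-treated mice, against 11.22, 11.27, 11.13 and 10.71 in IgG-treated mice. Efna1 is known as a TNF-inducible ligand of EphA2 in endothelium. Its difference was -0.041 (interval -0.34 to 0.25), with array 4 of either treatment the lowest. Efna2 measured 9.31, 9.10, 8.51 and 8.45 in anti-TIE1-treated mice, against 9.16, 8.78, 9.23 and 9.02 in IgG-treated mice. Anti-TIE1 3 and 4 lay below all IgG-treated mice and anti-TIE1 1 above them, for a difference of -0.20 (interval -0.63 to 0.22), which was -0.36 without anti-TIE1 1, and -0.092 and -0.074 without anti-TIE1 3 or anti-TIE1 4. Efna3 averaged 7.88 ± 0.13 in anti-TIE1-treated and 8.02 ± 0.08 in IgG-treated mice, a difference of -0.13 (interval -0.32 to 0.05), at the edge of the background range.

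Epha2, the receptor for ephrin-A1 on vessels, averaged 10.08 ± 0.11 in anti-TIE1-treated and 10.16 ± 0.12 in IgG-treated mice, with 1 array in each treatment well above the rest. The difference was -0.080 (interval -0.27 to 0.11). Ephb1, which also binds ephrin-Bs, averaged 7.59 ± 0.15 in anti-TIE1-treated and 7.73 ± 0.08 in IgG-treated mice, with a difference of -0.14 (interval -0.34 to 0.06). It was above background on 1 array.

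Epha7, an Eph receptor best known from the developing nervous system, had the guidance gene values with the smallest unadjusted p. It measured 6.48, 6.41, 6.31 and 6.57 in anti-TIE1-treated mice, against 6.70, 6.51, 6.79 and 6.98 in IgG-treated mice. The treatments overlapped through anti-TIE1 4 and IgG 2, and all 8 values lay below the brightest background set of their array. The log2 difference was -0.30 (SE 0.10, interval -0.53 to -0.07), with an unadjusted p of 0.015 and an adjusted p of 0.88 in limma, and p = 0.057 in a two-sided exact permutation test.

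Among class 3 semaphorins, the secreted ligands that act on vessels through neuropilins and plexins, Sema3c measured 11.37, 11.84, 11.71 and 11.81 in anti-TIE1-treated mice, against 11.78, 11.59, 11.45 and 11.40 in IgG-treated mice, a difference of 0.13 (interval -0.14 to 0.39), with anti-TIE1 1 the lowest of all 8. Without anti-TIE1 1 it was 0.23, with an unadjusted limma p of 0.0499 and an adjusted p of 0.86. It was 0.20 without IgG 1, and 0.075, 0.083 and 0.075 without anti-TIE1 2, anti-TIE1 4 or IgG 4, with an unadjusted p of 0.572, 0.542 and 0.570 for these 3. Sema3f, an anti-angiogenic ligand of neuropilin 2, averaged 11.47 ± 0.09 in anti-TIE1-treated and 11.40 ± 0.09 in IgG-treated mice, a difference of 0.066 (interval -0.10 to 0.24). Sema3g, known from arterial endothelium, averaged 9.79 ± 0.10 in anti-TIE1-treated and 9.79 ± 0.19 in IgG-treated mice, a difference of -0.0041 (interval -0.23 to 0.22).

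Sema3e, the ligand of plexin-D1, lay in the background range with 7.34 ± 0.08 in anti-TIE1-treated and 7.29 ± 0.10 in IgG-treated mice, a difference of 0.048 (interval -0.13 to 0.22). Its receptor Plxnd1 measured 10.99, 11.02, 11.05 and 11.02 in anti-TIE1-treated mice, against 11.11, 11.05, 11.07 and 10.94 in IgG-treated mice. Plxnd1 varied least of the 56 genes, with a pooled SD of 0.054, and its difference of -0.026 had an interval from -0.17 to 0.12. The other 8 plexins differed by -0.080 to 0.048.

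Sema5a, a membrane-bound semaphorin with thrombospondin repeats and a ligand of plexin-B3, measured 8.45, 8.95, 8.73 and 8.78 in anti-TIE1-treated mice, against 8.28, 8.22, 8.65 and 8.63 in IgG-treated mice. In 3 of 4 anti-TIE1-treated mice it was above all IgG-treated mice, and anti-TIE1 1 lay among them. The difference was 0.28 (SE 0.13, interval -0.01 to 0.57), with an unadjusted p of 0.057 and an adjusted p of 0.95 in limma. With 1 array left out the difference ranged from 0.21 (without anti-TIE1 2) to 0.37 (without anti-TIE1 1), with an unadjusted p of 0.015, 0.031 and 0.036 without anti-TIE1 1, IgG 3 or IgG 4 and from 0.093 to 0.159 without each of the other 5. Its relative Sema5b, in the background range, measured 7.83, 7.79, 7.68 and 7.67 in anti-TIE1-treated mice, against 7.70, 7.03, 7.17 and 7.82 in IgG-treated mice. IgG 2 and IgG 3 were low and the other IgG values lay among those of the anti-TIE1-treated mice. The difference was 0.31 (interval -0.05 to 0.67), and with 1 array left out it ranged from 0.18 (unadjusted limma p of 0.246, without IgG 2) to 0.44 (p of 0.015, without IgG 4). The p was also under 0.05 without IgG 1, at 0.038, and over it without each of the other 6 arrays.

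Sema6d, a membrane-bound ligand of plexin-A1, averaged 11.35 ± 0.10 in anti-TIE1-treated and 11.39 ± 0.15 in IgG-treated mice, a difference of -0.035 (interval -0.24 to 0.17). Sema4c, a ligand of plexin-B2, averaged 8.96 ± 0.21 in anti-TIE1-treated and 8.91 ± 0.20 in IgG-treated mice, a difference of 0.059 (interval -0.22 to 0.34). Sema4f, a semaphorin of the nervous system, averaged 8.03 ± 0.08 in anti-TIE1-treated and 8.15 ± 0.16 in IgG-treated mice, a difference of -0.12 (interval -0.33 to 0.08).

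The 33 guidance genes not named with a difference of their own differed by -0.17 to 0.089. Among those above background, Sema6a, a membrane-bound ligand of plexin-A2 and plexin-A4, ran from 11.14 to 11.25 in anti-TIE1-treated and from 11.12 to 11.31 in IgG-treated mice, and its receptor Plxna2 ran from 9.61 to 9.84 in anti-TIE1-treated and from 9.65 to 9.95 in IgG-treated mice. Plxnc1, the receptor of the lipid-anchored semaphorin 7A, ran from 9.95 to 10.16 in anti-TIE1-treated and from 9.92 to 10.12 in IgG-treated mice. Plxna1, a partner of neuropilins in class 3 semaphorin signalling, ran from 10.30 to 10.58 in anti-TIE1-treated and from 10.21 to 10.73 in IgG-treated mice. Epha4, an Eph receptor that binds ephrins of both classes, ran from 8.48 to 8.90 in anti-TIE1-treated and from 8.61 to 8.84 in IgG-treated mice. In each of these 5 genes the treatments overlapped.

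Robo4 measured 11.51, 11.59, 11.59 and 11.58 in anti-TIE1-treated mice, against 11.54, 11.57, 11.26 and 11.47 in IgG-treated mice. The anti-TIE1 values were close together and the low IgG value was that of IgG 3. The difference was 0.11 (SE 0.08, interval -0.07 to 0.29), and without IgG 3 it was 0.044. Robo1, the receptor through which Slit2 acts on axons and endothelium, lay in the background range at 6.86 ± 0.06 in anti-TIE1-treated and 6.83 ± 0.05 in IgG-treated mice, and the ligand Slit2 likewise at 7.50 ± 0.10 in anti-TIE1-treated and 7.49 ± 0.13 in IgG-treated mice. Robo1 differed by 0.031 (interval -0.12 to 0.18) and Slit2 by 0.013 (interval -0.18 to 0.20). Slit3, the one Slit above background, averaged 8.08 ± 0.10 in anti-TIE1-treated and 8.02 ± 0.09 in IgG-treated mice, a difference of 0.061 (interval -0.11 to 0.23).

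**Figure D4:**
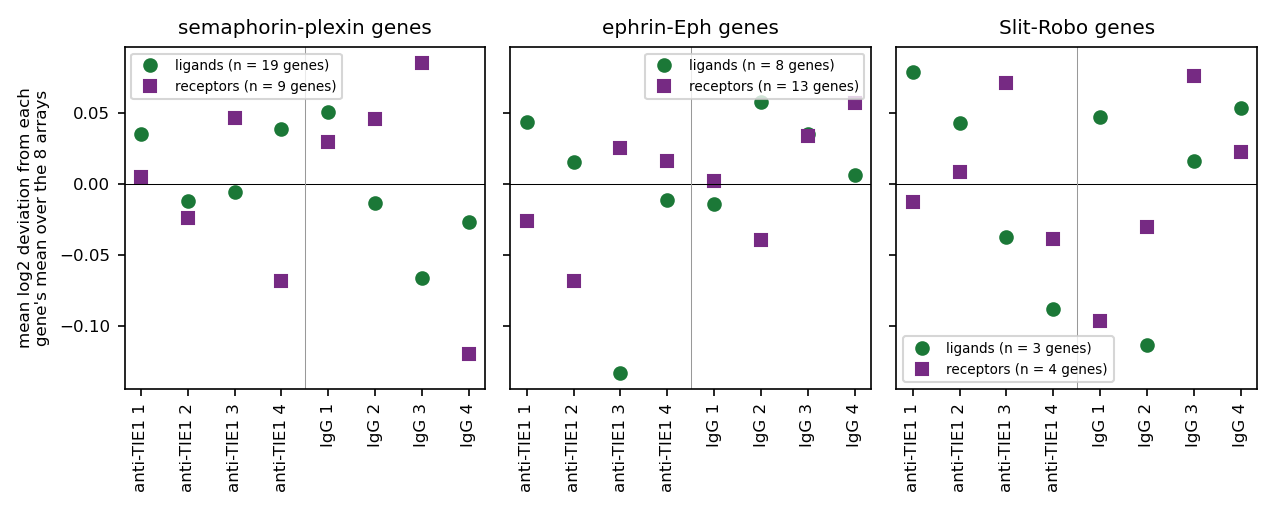
Mean log2 deviation from each gene's own mean over the 8 arrays (vertical axis) of ligands (green circles) and receptors (purple squares) on each array, anti-TIE1 arrays left of the IgG arrays, for semaphorins and plexins, ephrins and Eph receptors, and Slits and Robos. All points lie between -0.13 and 0.09, and in each of the 6 gene sets the treatments overlap.

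Array by array, the ligand and receptor sets overlapped between the treatments. The 9 plexins averaged from -0.07 to 0.05 on anti-TIE1 arrays and from -0.12 to 0.09 on IgG arrays, as log2 deviation from each gene's mean, with IgG 3 the highest and IgG 4 the lowest of all 8. The 8 ephrins averaged from -0.13 to 0.04 on anti-TIE1 arrays and from -0.01 to 0.06 on IgG arrays, with anti-TIE1 3 the lowest.

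The arrays also fell into sets by their spiked hybridization controls, across treatments. These controls, labelled spikes added at hybridization, measured 10.40 to 10.51 on anti-TIE1 3, anti-TIE1 4, IgG 1 and IgG 2, and 10.79 to 11.05 on the others (log2 intensity). The sets were cut at the largest gap between arrays. Within the high set the controls still differed by treatment, at 10.88 and 10.79 on anti-TIE1 1 and 2, against 11.04 and 11.05 on IgG 3 and 4. Within the arrays with low and with high controls, Ephb4 differed by 0.10 and 0.39, Epha7 by -0.16 and -0.44, Sema5a by 0.50 and 0.061, and Sema5b by 0.31 and 0.31. Their direction was the same in both sets. All of these were picked for the smallest unadjusted limma p over all arrays, so the like direction is no separate support. Efna1 differed by -0.31 within the low set and 0.23 within the high set, Efna2 by -0.49 and 0.079, and Efnb2 by 0.093 and -0.10. These pairs have opposite signs, with 2 mice per treatment in each set.

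**Figure D5:**
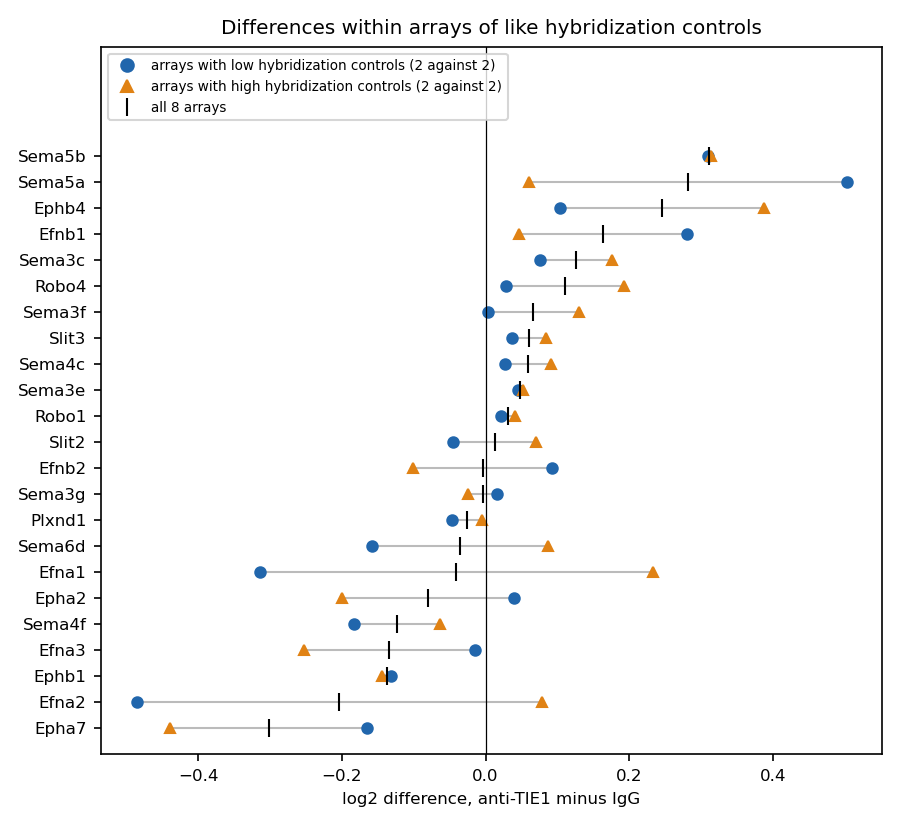
Log2 difference, anti-TIE1 minus IgG (horizontal axis), of 23 guidance genes within the arrays with low (blue circles) and high (orange triangles) hybridization controls, 2 mice per treatment in each, and over all 8 arrays (black bars). Sema5b lies at 0.31 in both sets, while Efna1 and Efna2 lie on opposite sides of 0.

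Lists of signalling genes, some of which encode surface proteins, and of the separate netrin and Unc5 guidance system also gave few differences. Of 29 genes of plexin and semaphorin signalling, 1 passed an unadjusted p under 0.05, upwards, and the median difference was -0.0077. It was Rras, a small GTPase whose activity plexins switch off, at 10.53 ± 0.09 in anti-TIE1-treated and 10.37 ± 0.04 in IgG-treated mice, with an adjusted p of 0.93 in limma. Of 23 genes of Eph and ephrin signalling, 1 likewise passed upwards and 0 downwards, namely Inppl1, which encodes the lipid phosphatase SHIP2 that binds EphA2, at 9.61 ± 0.06 in anti-TIE1-treated and 9.47 ± 0.03 in IgG-treated mice, with an adjusted p of 0.93 in limma. Of 18 genes of Slit and Robo signalling and 17 of the netrin and Unc5 guidance system, 0 passed in either direction. Over all probe sets 2.17% were higher and 3.15% lower at this threshold. A single gene in a list of 29 or 23 is therefore not read as a result about the list.

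Of 7 semaphorin co-receptors listed, 6 were measured, and 0 of these passed an unadjusted p under 0.05. The gene not measured under its symbol was Nrp1, which encodes neuropilin 1, so only 1 of the neuropilins is covered here. Nrp2, the neuropilin of veins and lymphatic vessels that binds semaphorin 3F, measured 8.33, 8.38, 8.46 and 8.34 in anti-TIE1-treated mice, against 8.82, 9.08, 8.88 and 8.17 in IgG-treated mice. All anti-TIE1 values lay below those of IgG 1, IgG 2 and IgG 3 but above that of IgG 4, for a difference of -0.36 (SE 0.16), an unadjusted p of 0.052 and an adjusted p of 0.93 in limma.

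Among marker genes of other cells, 3 lists held 4 or more genes with an unadjusted p under 0.05, and none of the markers in these 3 lists passed an adjusted p under 0.05. Over all probe sets 2.17% were higher and 3.15% lower at the unadjusted threshold. Of 8 lymphatic endothelial markers, 6 had lower means in anti-TIE1-treated mice, 4 of them at an unadjusted p under 0.05 in limma, with summed intensities from 6867 to 7207 on anti-TIE1 arrays and from 6612 to 8596 on IgG arrays. The sort had been set against cells positive for LYVE1 or PDPN, and Lyve1 RNA was the brightest of these markers, at 12.00 ± 0.06 in anti-TIE1-treated and 11.96 ± 0.15 in IgG-treated mice. Of 11 platelet and megakaryocyte markers, 9 had lower means and 7 passed the same threshold, with sums from 3668 to 4117 on anti-TIE1 arrays and from 3799 to 6228 on IgG arrays. IgG 4 was the IgG array nearest to the anti-TIE1 arrays in both lists: the platelet markers averaged 8.19 to 8.36 on anti-TIE1 arrays, against 8.67, 8.82, 8.85 and 8.27 on IgG 1 to 4, and the lymphatic markers 8.83 to 8.91 on anti-TIE1 arrays, against 9.20, 9.28, 9.14 and 8.96 (mean log2 intensity). Of 9 alveolar type 2 epithelial markers, 8 had higher means and 4 passed, with sums from 6966 to 10306 on anti-TIE1 arrays and from 5781 to 7914 on IgG arrays. These markers averaged 8.84 to 9.31 on anti-TIE1 arrays, against 8.54, 8.51, 8.67 and 8.97 on IgG 1 to 4. IgG 4 thus lay apart from the other IgG arrays and inside the anti-TIE1 range here as well. Above background on all arrays were 5 of the 8 lymphatic, 7 of the 11 platelet and 4 of the 9 alveolar type 2 markers. Their part in the values of the guidance genes was not tested.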

How the data were processed

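RNA of sorted lung EC from 4 anti-TIE1-treated and 4 IgG-treated mice was measured on 1 Clariom S mouse array each. The authors deposited linear intensity values that they had normalized by a method not given in the sources used here. Median intensity was 184 to 189.6 per array, and no pair of arrays was identical (r 0.978 to 0.986). The number of arrays limits the precision.

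Samples were grouped by title. Of 29129 probe sets, 6923 controls and 4 with missing values were left out. Log2 intensity of the other 22202 was fitted with limma 3.58.1 in R 4.3.3 (anti-TIE1 minus IgG, eBayes without trend, Benjamini-Hochberg adjustment over all of them). Symbols came from GEO's platform annotation: 19572 probe sets have 1 symbol, 0 have several and 2630 have none. Limma was tested on simulated data.

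The members and gene lists were chosen with earlier results of these data known. Members named with a difference are the 5 per direction with the smallest unadjusted p, the brightest of each of 10 families, and those with textbook roles in endothelium. The background criterion, the ratio of Ephb4 to Efnb2, and the promoters and motifs shown were chosen after seeing the data. Promoters are RefSeq's (GRCm38.p6). Alternatives were quantile normalization, median centring, leaving out dim probe sets, another variance model, array weights, blocks for replicate number and hybridization controls, each array left out, and the exact two-tailed Mann-Whitney test.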

Additional observations from a re-analysis of the deposited data

Results flagged for a closer look

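In 5 of the 46 sets of 4 arrays examined (23 genes in either treatment), a single array stood apart from the other 3 by more than Dixon's 95% criterion for the gap to the nearest value over the whole range. Chance gives about 1 in 20. In anti-TIE1-treated mice these were Epha2 on array 4 (10.24, nearest 10.05, gap over range 0.836), Robo1 on array 4 (6.76, nearest 6.88, 0.848) and Sema4f on array 1 (8.15, nearest 7.99, 0.937). In IgG-treated mice they were Epha2 on array 3 (10.33, nearest 10.12, 0.892) and Sema3e on array 2 (7.14, nearest 7.34, 0.913). Robo1 and Sema3e were inside the background range on all arrays.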

How the results depend on the processing

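No guidance gene passed an adjusted p under 0.05 under any alternative run. Over all probe sets the count, 0 with all arrays, ranged from 0 to 18 with 1 array left out, being 18 without IgG 4 and 1 without anti-TIE1 4 or without IgG 1. The guidance genes higher at an unadjusted p under 0.05, 1 with all arrays, ranged from 0 to 4 with 1 array left out (4 without anti-TIE1 1, 2 without IgG 1 or IgG 4, 0 without anti-TIE1 2 or anti-TIE1 3) and were 2 with array weights, Ephb4 and Sema5a. Those lower, 1 with all arrays, were 0 in the fit restricted to probe sets at or above the median level of 7.54, which leaves out Epha7, 0 by the exact Mann-Whitney test, and 4 and 2 within the low and the high set of hybridization controls. Genes without overlap, 1 with all arrays, were 0 after median centring and ranged from 1 to 4 with 1 array left out. With fewer arrays, overlap is easier to avoid. The share of all probe sets at the unadjusted threshold or without overlap is not given for each alternative. These counts therefore cannot be set against a background and are not read as a result about the guidance genes.

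The median difference of ligands was 0.066 within the high set, and that of receptors 0.016 within the low set and from -0.034 to 0.020 with 1 array left out. Of the 23 genes named with a difference, 14 kept their direction under all alternatives run. Efnb2 was 0.0036 after median centring, 0.0080 with array weights and 0.093 within the low set, and Sema3g was 0.0034, 0.012 and 0.016 in the same order. Within the low set Epha2 was 0.039 and Slit2 was -0.045, and within the high set Efna1 was 0.23, Efna2 was 0.079 and Sema6d was 0.087. With 1 array left out, Efna1 ranged from -0.17 to 0.030, Efnb2 from -0.045 to 0.024, Sema3e from -0.0040 to 0.083, Sema3g from -0.053 to 0.077, Sema4c from -0.039 to 0.16, Sema6d from -0.11 to 0.012 and Slit2 from -0.045 to 0.050. Several differences kept their sign but became much smaller, among them Efna3 (-0.073 without anti-TIE1 2), Ephb1 (-0.071 without anti-TIE1 4), Epha2 (-0.022 without IgG 3) and Sema4f (-0.051 without IgG 1). The cause of these changes was not tested.

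Deviations of same-numbered mice correlated at 0.0066, -0.013, -0.050 and -0.016, and those of differently numbered mice at -0.13 to 0.12. No pairing by number was seen, but correlations near 0 cannot exclude one. With the replicate number as a block, 2 guidance genes were higher at an unadjusted p under 0.05, Ephb4 and Sema5a, and the other counts were as without the block. Each guidance gene has 1 probe set, so averaging probe sets was not run.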
